A study of Homo sapiens with 6 samples.

Results

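The genes described here encode the proteins of the mitochondrial ribosome, taken as every row of the deposited expression table whose symbol reads MRPL or MRPS followed by a number and at most 1 further letter. The rule found 78 of 23344 rows, 48 for the large subunit (MRPL) and 30 for the small subunit (MRPS), carrying 76 different symbols. Expression was measured by RNA sequencing in Huh7, an established human liver cancer line. There were 3 libraries of cells that received a control lentivirus (shNC) and 3 of cells that received a lentivirus against the V1 form of versican (sh2), the matrix proteoglycan that VCAN encodes. Both viruses were made in 293T cells and added with polybrene. The knockdown label names a single hairpin. Whether replicate libraries stem from separate cultures is not given in the labels, and p-values therefore reflect the library-to-library spread alone, possibly technical.

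The mitochondrial ribosome translates the few messenger RNAs that the mitochondrial genome encodes, all of them for subunits of the respiratory chain and ATP synthase. Its ribosomal RNAs come from mitochondrial DNA, while its proteins are encoded in the nucleus, made in the cytosol and imported. Many of these proteins have homologues in bacterial ribosomes, and others are found in mitochondria alone. In liver cells, which are rich in mitochondria, the machinery is expressed throughout.

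The values were treated as FPKM, reads per length and library, although the file names no unit, and read totals were not used here. Library sums ranged from 851418 to 947769 in control and from 922125 to 975501 in knockdown libraries. VCAN was lower in every knockdown library, at 1.90, 1.74 and 1.64 against 4.79, 6.24 and 8.10 (log2 fold change -1.39, SE 0.19, limma adjusted p = 0.0103). Isoforms are not separated in these values, so V1 itself was not measured. All 10 hepatocyte markers listed were at 1 or more in every library, and 3 of them passed the test: APOA1 rose (log2 fold change 1.05, limma adjusted p = 0.0325), FGB rose (0.70, adjusted p = 0.0188) and TTR fell (-1.19, adjusted p = 0.0077). The 8 leukocyte markers summed to between 71.4 and 90.2 in control libraries and to 106, 198 and 105 in knockdown replicates 1, 2 and 3. Of these, CD14 was at 45.6 to 72.5 across the libraries and did not pass (log2 fold change 0.20, limma adjusted p = 0.456). CD3E and CD79A stayed at or below 0.50. PTPRC was at 1.96 and NKG7 at 5.54 in knockdown replicate 2, and at most 0.16 and 0.10 elsewhere. In knockdown replicate 2 S100A9 was at 30.6 and S100A8 at 17.9, while S100A8 was listed at 0 in the other libraries. LYZ, which encodes lysozyme, rose in the knockdown group as a whole, from 18.3, 24.7 and 24.8 to 44.5, 68.2 and 37.8 (log2 fold change 1.08, limma adjusted p = 0.0277). Of 6 fibroblast and endothelial markers, 4 were in the table; LUM was at 147 to 183 in every library, and DCN, PDGFRB and VWF reached at most 0.42, 1.01 and 0.03. The part of these transcripts in the results was not tested, and in bulk RNA fewer cells of a type and less RNA per cell cannot be told apart.

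Fold changes of mitochondrial ribosomal protein transcripts were mostly below 0 in both subunits, and 13 of the 76 genes tested fell. A gene is said to have risen or fallen where limma's adjusted p over all 13696 genes tested was below 0.05, and fold changes are on the log2(value + 1) scale, knockdown against control. Of 47 large-subunit genes tested, 6 fell and 0 rose; of 29 small-subunit genes, 7 fell and 0 rose. Among all genes tested 3.94% fell and 4.15% rose. At an unadjusted p below 0.05, 23 large-subunit and 16 small-subunit genes were lower and 0 of either were higher. Among all 13696 genes tested 4019 were at an unadjusted p below 0.05, of which 1834 were higher and the others lower. The median log2 fold change was -0.26 for the large and -0.30 for the small subunit, against -0.03 for all genes tested. Of the 76 genes, 71 had a fold change below 0 (93.4%), as did 53.5% of all genes tested, 94.8% of cytosolic ribosomal protein genes and 92.2% of nuclear-encoded respiratory chain genes.

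Most of these genes are expressed at intermediate to high levels, so the same figures were taken over the 5381 genes tested whose mean level lies within the range of these 76. Levels within the range were not matched: the median control mean was 64.7 for the 76 genes and 35.5 for the 5381. In that range 6.32% of genes fell and the median was -0.09. An unadjusted p below 0.05 was found for 1871 of the 5381, of which 656 were higher. For 48 of the 76 genes (63.2%) every knockdown library was below every control library, and for 0 of them above. In the level range these shares were 24.9% and 13.1%, and among all genes tested 18.7% and 14.4%. The differences are small: the 13 genes that fell had knockdown means between 53.3% and 75.2% of their control means, and 6 of them changed by at least 1.5-fold.

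**Figure D1:**
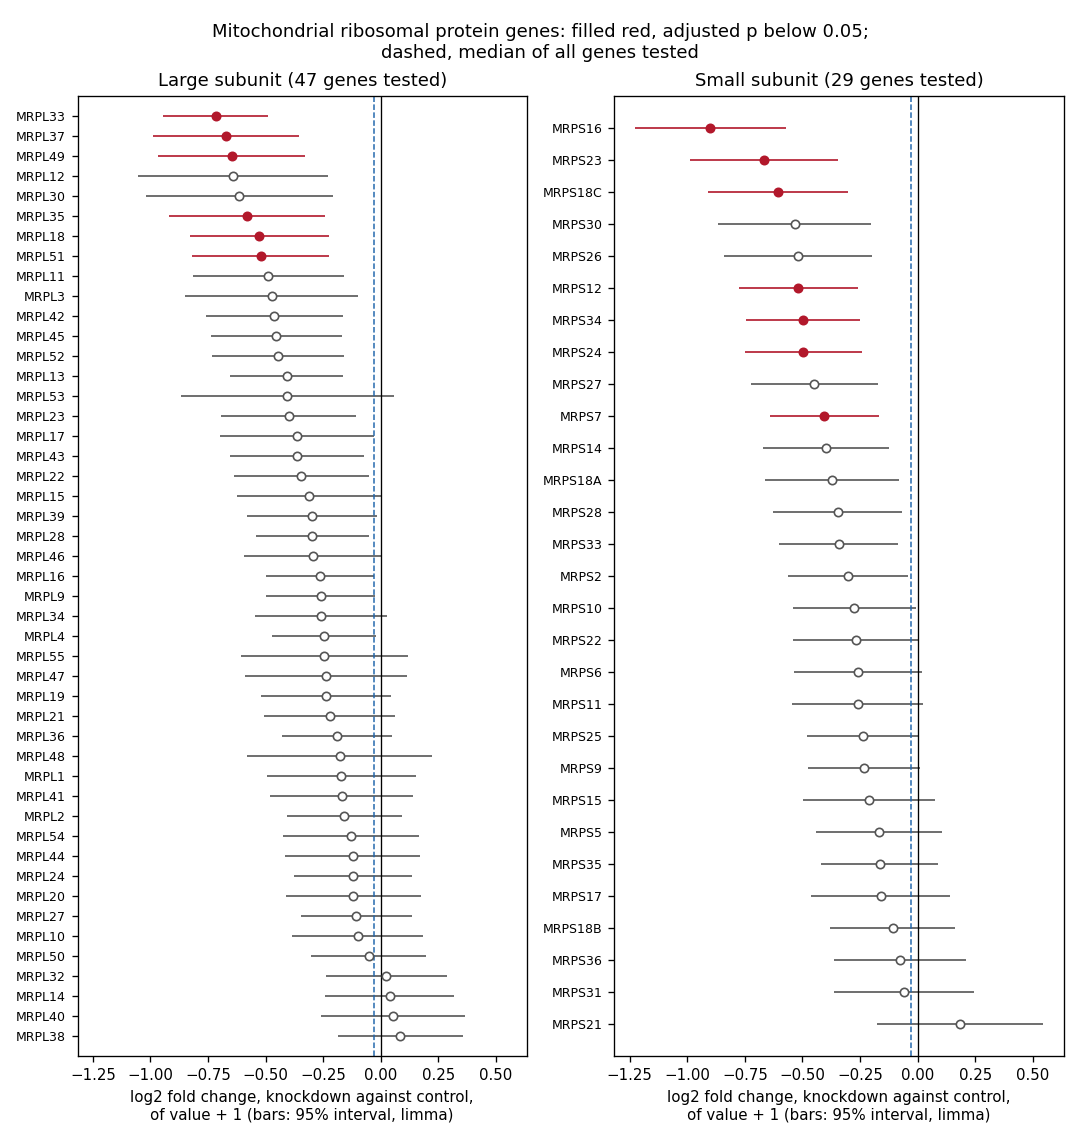
Log2 fold change of value + 1 (x axis) for each gene of the large subunit (left, 47 genes) and the small subunit (right, 29 genes), with 95% intervals from limma; filled red points have an adjusted p below 0.05 and the dashed line is the median of all genes tested. In both panels most points lie left of 0, from -0.90 for MRPS16 to 0.18 for MRPS21.

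**Figure D2:**
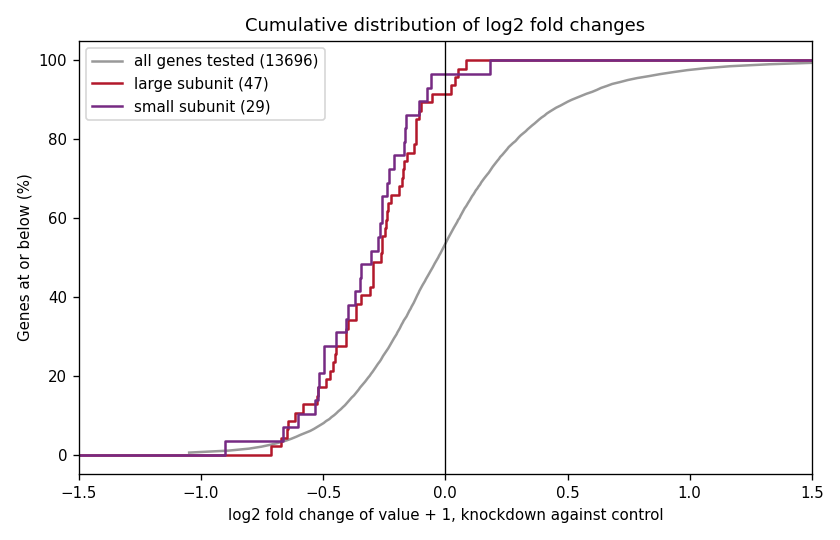
Percent of genes (y axis) with a log2 fold change at or below the value on the x axis, for the large subunit, the small subunit and all genes tested. The curves of the subunits run together and left of the grey curve, with medians of -0.26, -0.30 and -0.03.

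In the large subunit, MRPL33, MRPL37, MRPL49, MRPL35, MRPL18 and MRPL51 fell. MRPL33 (ENSG00000243147), homologue of the bacterial protein L33, had values of 177, 163 and 183 in control and 107, 103 and 107 in knockdown replicates 1, 2 and 3. Its log2 fold change was -0.72 (SE 0.10, limma adjusted p = 0.0107), and its knockdown values lay closer together than its control values. MRPL37 (ENSG00000116221), a protein class without a bacterial homologue, had 72.1, 82.5 and 67.2 in control and 52.5, 46.6 and 39.5 in knockdown libraries. It fell by 0.67 on the log2 scale (SE 0.14, limma adjusted p = 0.0289), with no overlap between groups.

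MRPL49 (ENSG00000149792), also without a bacterial homologue, had 21.4, 23.6 and 22.6 in control and 13.2, 16.8 and 12.4 in knockdown libraries. MRPL35 (ENSG00000132313), homologue of bacterial L35, had 47.0, 44.2 and 44.9 against 36.4, 30.04 and 24.5. The groups were apart for both genes, and knockdown replicate 1 was the highest knockdown library for MRPL35 while replicate 2 was for MRPL49. MRPL18 (ENSG00000112110), of the L18 family whose bacterial member binds 5S ribosomal RNA, had 180, 151 and 166 in control and 134, 105 and 106 in knockdown libraries. MRPL51 (ENSG00000111639), the gene with the highest mean level of all 76, had 361, 309 and 345 against 273, 231 and 206. For MRPL18 and MRPL51 knockdown replicate 1 stood nearest to the control libraries. The log2 fold changes were -0.65 for MRPL49 (adjusted p = 0.0324), -0.58 for MRPL35 (adjusted p = 0.0488), -0.53 for MRPL18 (adjusted p = 0.0462) and -0.52 for MRPL51 (adjusted p = 0.0456), all from limma.

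In the small subunit, MRPS16, MRPS23, MRPS18C, MRPS12, MRPS34, MRPS24 and MRPS7 fell. MRPS16 (ENSG00000182180), homologue of bacterial S16, had 68.2, 67.7 and 60.8 in control and 40.1, 28.3 and 36.5 in knockdown libraries. This was the largest change of all 76 genes (log2 fold change -0.90, SE 0.14, limma adjusted p = 0.0154), a knockdown mean of 53.3% of the control mean. MRPS23 (ENSG00000181610), a protein without a bacterial homologue, had 120, 122 and 107 against 88.8, 67.5 and 64.4. It fell by 0.67 on the log2 scale (SE 0.14, limma adjusted p = 0.0314), and knockdown replicate 1 was again the nearest to the control libraries.

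MRPS12 (ENSG00000128626), homologue of bacterial S12 at the decoding centre, had 68.5, 63.6 and 65.1 in control and 50.9, 43.8 and 42.5 in knockdown libraries. MRPS7 (ENSG00000125445), homologue of S7, which organises the head of the bacterial small subunit, had 65.9, 64.2 and 68.2 against 48.9, 52.9 and 47.3. Control libraries varied little for both, with SDs of 2.53 and 2.00 (n = 3). MRPS34 (ENSG00000074071) had the highest mean of the small subunit, with 245, 209 and 208 in control and 154, 161 and 151 in knockdown libraries. MRPS24 (ENSG00000062582) had 130, 124 and 118 against 83.6, 97.7 and 81.8. No knockdown value of these 4 genes reached the lowest control value. Their limma log2 fold changes were -0.52 for MRPS12 (adjusted p = 0.0334), -0.41 for MRPS7 (adjusted p = 0.0494), -0.50 for MRPS34 (adjusted p = 0.0324) and -0.50 for MRPS24 (adjusted p = 0.0356).

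MRPS18A, MRPS18B and MRPS18C are the 3 human relatives of bacterial S18. MRPS18C (ENSG00000163319) had 57.0, 54.5 and 52.0 in control and 42.3, 33.2 and 31.7 in knockdown libraries and fell by 0.60 on the log2 scale (SE 0.13, limma adjusted p = 0.0339). MRPS18A had 39.9, 38.9 and 32.6 against 25.6, 29.6 and 30.3 (log2 fold change -0.37, limma adjusted p = 0.102), and MRPS18B had 45.8, 43.4 and 52.8 against 44.2, 46.2 and 40.7 (-0.11, limma adjusted p = 0.584). The groups did not overlap for MRPS18A and MRPS18C and overlapped for MRPS18B. The ratio of MRPS18C to MRPS18B was 1.25, 1.26 and 0.98 in control and 0.96, 0.72 and 0.78 in knockdown libraries, a separation by a narrow margin that was not tested.

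**Figure D3:**
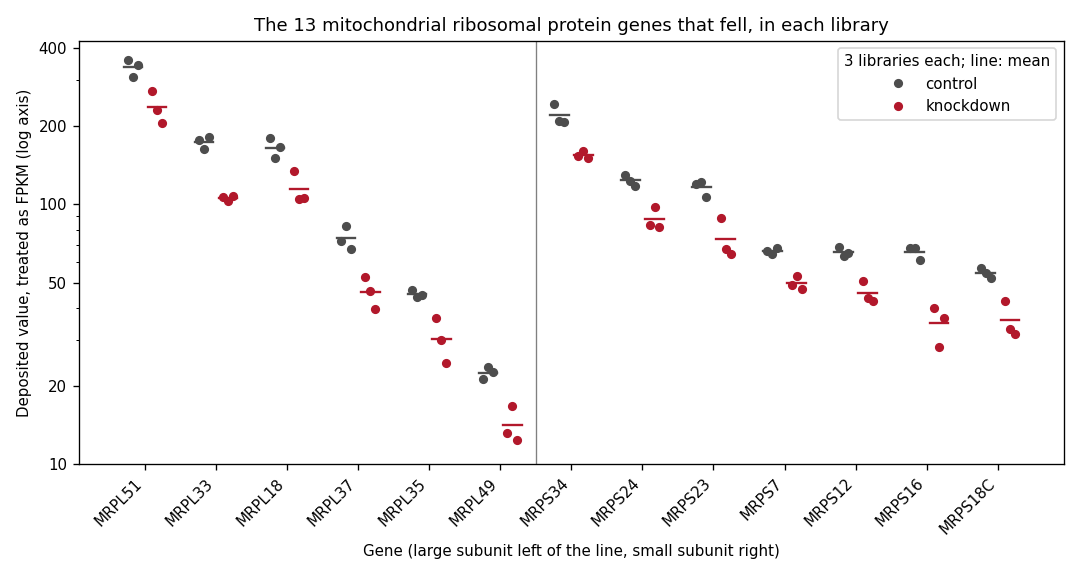
Deposited value, treated as FPKM (log axis), of the 13 genes that fell, in 3 control and 3 knockdown libraries, with the mean of each group as a line; large subunit left of the grey line, small subunit right. For every gene all knockdown points lie below all control points, from MRPL51 at 338 against 236 to MRPL49 at 22.5 against 14.1 on average.

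A further 10 genes lay just past the threshold, with limma adjusted p from 0.0529 (MRPL13) to 0.0695 (MRPL11). They include MRPL12, the homologue of the flexible stalk protein of bacterial ribosomes, with 73.6, 70.1 and 61.2 in control and 58.0, 38.9 and 35.8 in knockdown libraries (log2 fold change -0.64, limma adjusted p = 0.0612). MRPL11, at the base of that stalk, had 293, 256 and 236 against 223, 176 and 163 (-0.49). MRPL52 had 210, 181 and 192 against 162, 142 and 124 (-0.45, adjusted p = 0.0619), and with MRPL51 and MRPL11 had the highest mean levels of the large subunit. MRPL30, the gene of lowest mean level in the large subunit, had 27.8, 18.4 and 17.4 against 12.8, 14.1 and 12.7 (-0.61, adjusted p = 0.0670). For each of these 4 genes every knockdown library lay below every control library.

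Of the 76 genes, 63 did not pass the test, and 37 of these had an unadjusted p of 0.05 or more. MRPS21, homologue of bacterial S21, had 35.2, 25.4 and 28.4 in control and 30.3, 31.3 and 39.7 in knockdown libraries, the highest fold change of the 76 (0.18, 95% interval half-width 0.36, limma adjusted p = 0.476). In the large subunit the highest were MRPL38 (0.09), MRPL40 (0.05) and MRPL14 (0.04), each with an interval of 0.27 to 0.31 on either side. MRPL14 had 48.8, 39.9 and 38.3 against 42.1, 43.5 and 44.2, so its groups overlapped. MRPS31 had 20.1, 21.4 and 23.1 against 22.6, 17.7 and 21.8 (-0.06, adjusted p = 0.806). The lower 95% limits were -0.18 for MRPS21, -0.19 for MRPL38, -0.24 for MRPL14, -0.26 for MRPL40 and -0.36 for MRPS31. For MRPS21, MRPL38 and MRPL14 the interval thus left out the median change of their own subunit, and for MRPL40 it ended at about that median. Smaller falls lay within all 5 intervals.

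MRPS36, although named as a ribosomal protein, is known as a subunit of the oxoglutarate dehydrogenase complex. It had 52.3, 43.5 and 48.5 in control and 43.6, 42.0 and 51.2 in knockdown libraries (-0.08, adjusted p = 0.725). MRPS30 and MRPS18A bear small-subunit symbols, while their systematic names in RefSeq, mL65 and mL66, place them in the large subunit. MRPS30 had 78.0, 76.5 and 69.9 against 63.4, 48.2 and 44.1, with no overlap (-0.53, adjusted p = 0.0572). With these 2 genes counted in the large subunit and MRPS36 left out, 6 of 49 large-subunit and 7 of 26 small-subunit genes fell, with medians of -0.29 and -0.29.

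Levels differed more between the genes than between the groups. The mean value over all libraries ran from 14.5 for MRPS14 to 287 for MRPL51, a 19.9-fold range, and the order of the 76 genes was nearly kept between control and knockdown means (Spearman's rho 0.98 across genes, which are not independent). MRPS14, the least abundant, had 18.2, 16.2 and 15.4 in control and 12.6, 12.2 and 12.2 in knockdown libraries (-0.40, adjusted p = 0.0743). MRPL10 was among the lowest of the large subunit, at 21.3, 23.2 and 21.9 against 18.7, 23.3 and 19.8, and its groups overlapped. MRPS27 had 27.1, 26.3 and 26.0 against 20.9, 19.8 and 16.9 (-0.45, adjusted p = 0.0553). MRPS33 and MRPS35, next to MRPS34 the most abundant of the small subunit, went from control means of 150.3 ± 15.4 and 134 ± 8.25 (SD, n = 3) to knockdown means of 118 ± 4.46 and 119 ± 10.1, with limma adjusted p of 0.0902 and 0.356. Across the 76 genes the fold change had a weak negative rank correlation with the mean level (rho -0.19); both are computed from the same 6 libraries.

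Median fold changes were below 0 for genes of both evolutionary classes, although most genes of each class did not pass the test. By their systematic names in RefSeq, 30 large-subunit genes belong to families shared with bacteria, with a median of -0.26 and 3 that fell, and 17 to mitochondrial families, with a median of -0.30 and 3 that fell. In the small subunit the 14 genes of bacterial families had a median of -0.27 with 4 that fell. The 12 named as mitochondrial had one of -0.36 with 2 that fell. These 12 include MRPS18A and MRPS18B (mS40), although both are relatives of bacterial S18. Subunits follow the symbols here, so MRPS30 and MRPS18A are counted as small. MRPS24, MRPS28 and MRPS36 had no systematic name there. No class was compared with another by a test.

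Sums over each subunit were lower in all knockdown libraries, and the difference between subunits was not tested. The values of the large subunit summed to 4498, 3898 and 4008 in control and 3566, 3181 and 3071 in knockdown libraries, and those of the small subunit to 2023, 1887 and 1909 against 1581, 1482 and 1452. The ratio of large to small sums was 2.07 to 2.22 in control and 2.12 to 2.26 in knockdown libraries, so the groups overlapped. Relative to the control mean, the median large-subunit gene lay at -0.23, -0.30 and -0.37 (log2) in knockdown replicates 1, 2 and 3, with control libraries at -0.07 to 0.11. The median small-subunit gene lay at -0.26, -0.32 and -0.36, with control libraries at -0.03 to 0.06. The median of all genes tested was between -0.06 and 0.01 in the knockdown libraries.

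**Figure D4:**
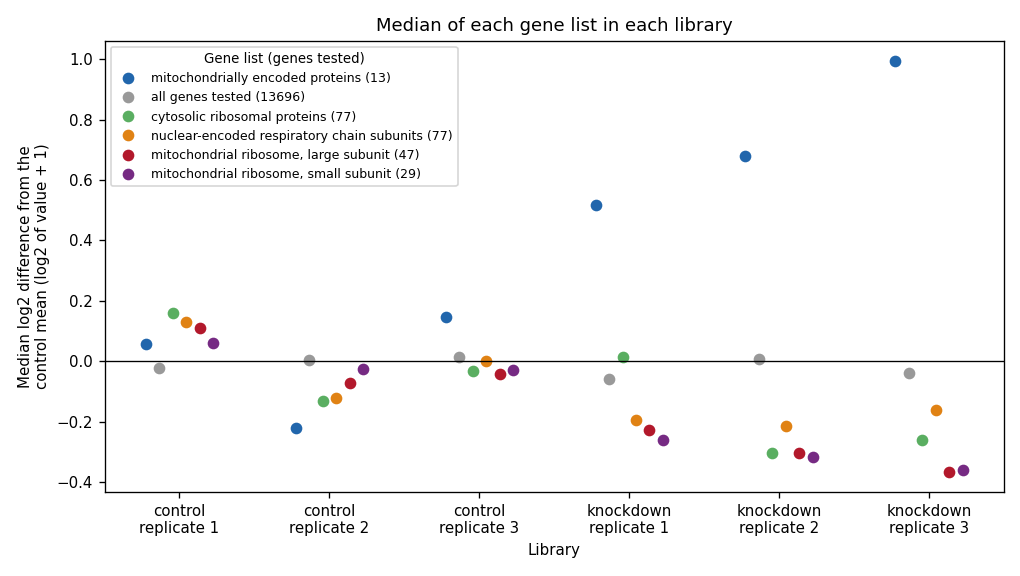
Median log2 difference from the control mean (y axis) of 6 gene lists in each library (x axis), with the number of genes tested in the legend. Both subunits of the mitochondrial ribosome lie at -0.23 or below in the knockdown libraries, the mitochondrially encoded genes at 0.52 or above, and all genes tested near 0.

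Transcripts of the mitochondrial genome moved the other way. Of 13 mitochondrially encoded protein genes, 12 rose and 0 fell, with a median log2 fold change of 0.72. These calls too depend on single libraries: leaving out control replicate 2 or knockdown replicate 2 left 0 of the 13 past the threshold, and leaving out control replicate 1, control replicate 3 or knockdown replicate 3 left 1 or 2. Without knockdown replicate 1 all 13 passed, with quantile normalization 6 did, and with no filter on low values 1 did. MT-ND3, a subunit of complex I, had 7397, 5306 and 6384 in control and 11481, 11499 and 14351 in knockdown libraries (0.97, SE 0.15, limma adjusted p = 0.0150). MT-CYB, the complex III subunit, rose by 0.96, MT-CO3 of complex IV by 0.79 and MT-ND2 of complex I by 0.69. MT-CO2 did not pass (0.57, adjusted p = 0.0648), although its groups too were apart.

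These 13 genes took 16.0% to 19.2% of the summed values in control and 23.8% to 31.2% in knockdown libraries, which lowers the share left for all other genes. With each library rescaled to its total without them, the medians were -0.16 for the large and -0.20 for the small subunit, while that of all genes tested went from -0.03 to 0.06. In that scaling 66 of the 76 genes had a fold change below 0, 2 large-subunit and 3 small-subunit genes fell and 0 rose, against 1.63% of all genes tested that fell. Of the summed values without the mitochondrially encoded genes, the mitochondrial ribosomal genes took 0.834%, 0.809% and 0.808% in control and 0.712%, 0.693% and 0.674% in knockdown libraries. The groups did not overlap in that measure either.

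Among the other genes of mitochondrial translation, those that passed the test were assembly factors. The 7 ribosomal proteins with other names had fold changes from -0.33 to -0.06 and a median of -0.21, and 0 fell by limma (0 at an unadjusted p below 0.05); PTCD3 had 31.4, 41.1 and 44.8 against 29.9, 36.6 and 26.0, and CHCHD1 71.6, 52.5 and 66.3 against 50.8, 50.5 and 59.0. Of 25 assembly factors tested, 3 fell and 0 rose (median -0.16). RPUSD3, a mitochondrial pseudouridine synthase, had 52.4, 54.7 and 60.7 in control and 34.2, 39.9 and 34.9 in knockdown libraries (-0.61, SE 0.12, limma adjusted p = 0.0239). MPV17L2 and WBSCR16, both needed to build the mitochondrial ribosome, fell by 0.53 and 0.50 on the log2 scale.

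Of 16 translation factors, 0 passed by limma while 6 had an unadjusted p below 0.05, all of them lower (median -0.16). TACO1, a translational activator of cytochrome oxidase subunit I, had 25.1, 22.8 and 21.6 in control and 15.6, 17.3 and 16.9 in knockdown libraries (-0.46, adjusted p = 0.0501), and the elongation factor TSFM had 44.0, 44.1 and 40.6 against 33.0, 35.6 and 32.3 (-0.34, adjusted p = 0.0801). Of 10 genes of mitochondrial transcription and DNA maintenance, POLG, the catalytic subunit of the mitochondrial DNA polymerase, rose from 16.1 ± 0.06 to 23.4 ± 0.89 (SD, n = 3; 0.51, limma adjusted p = 0.0322) and 0 fell, with a median of -0.23. Of 7 nuclear regulators tested, MYC rose, from 12.5, 22.6 and 22.5 to 40.7, 38.5 and 33.0 (0.97, limma adjusted p = 0.0351), and 0 fell; GABPA, an ETS-family activator of mitochondrial genes, had 8.67, 10.2 and 9.67 against 8.77, 9.43 and 8.68 (-0.07, adjusted p = 0.736).

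Other large complexes were taken for comparison, without a test of the difference. Of 77 cytosolic ribosomal protein genes 1 fell and 0 rose (0 higher at an unadjusted p below 0.05), with a median of -0.17. Relative to the control mean, their median lay at 0.02, -0.30 and -0.26 in knockdown replicates 1, 2 and 3, with control libraries at -0.13 to 0.16. Knockdown replicate 1 thus lay within the control range. The median of the 76 mitochondrial ribosomal genes lay at -0.23, -0.31 and -0.36, with control libraries at -0.05 to 0.07. Of 77 nuclear-encoded subunits of the respiratory chain 8 fell (10.4%, beside 3.94% of all genes tested) and 0 rose, with a median of -0.19. A fold change below 0 was as frequent in these lists as in the mitochondrial ribosome: 73 of 77 cytosolic ribosomal genes (94.8%) and 71 of 77 respiratory chain genes (92.2%), beside 71 of 76 (93.4%). Knockdown libraries lay below control libraries with no overlap for 16 cytosolic ribosomal (20.8%) and 33 respiratory chain genes (42.9%). That share was 18.7% among all genes tested and 24.9% in the level range of the 76 genes, so the cytosolic ribosomal share was near it.

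Promoter sequences were examined for letters that genes of the mitochondrial ribosome share. RefSeq windows (GRCh38.p14) from 250 bases before to 50 after a start site were at hand for 67 of the 76 genes. The letters CCGGAAG, on either strand, are the core bound by ETS factors such as GABPA, and 29 of the 67 genes (43.3%) held them, against 12.2% of all 27305 genes with a window and 23.1% of the 9086 that were also tested here. Among genes that fell, 8 of 12 with a window held them (MRPL18, MRPL33, MRPL51, MRPS12, MRPS16, MRPS18C, MRPS23 and MRPS34), and among the others 21 of 55. The difference between these shares was not tested, and which genes fell depends on the libraries used. AAGATGGCG, a YY1 core, was found in 13 of 67 (19.4%), against 2.14% of all genes and 4.91% of those tested; it was in the window of 1 gene that fell, MRPS24. The palindromic core of NRF1 was found in 1 (1.49%, against 1.52% of all genes and 2.74% of those tested) and TGACGTCA, the cyclic AMP response element, in 1 (1.49%, against 2.25% and 3.90%). The ETS and YY1 letters occurred together in 4 genes and overlapped in 0. A match is a description of these letters and not a bound site, and binding was not measured.

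The windows of 4 genes that fell are shown, 5′ to 3′, with the matched letters in capitals: the gene of the largest change in each subunit, the most abundant gene, and the gene with the YY1 letters.
MRPS16, chr10:73252595-73252894, minus strand: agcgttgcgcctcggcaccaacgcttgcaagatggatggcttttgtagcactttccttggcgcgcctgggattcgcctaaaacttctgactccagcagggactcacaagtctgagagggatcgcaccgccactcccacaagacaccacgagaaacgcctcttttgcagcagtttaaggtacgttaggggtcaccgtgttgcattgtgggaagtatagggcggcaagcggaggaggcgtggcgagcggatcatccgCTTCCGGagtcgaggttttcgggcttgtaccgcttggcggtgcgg
MRPL33, chr2:27771469-27771768, plus strand: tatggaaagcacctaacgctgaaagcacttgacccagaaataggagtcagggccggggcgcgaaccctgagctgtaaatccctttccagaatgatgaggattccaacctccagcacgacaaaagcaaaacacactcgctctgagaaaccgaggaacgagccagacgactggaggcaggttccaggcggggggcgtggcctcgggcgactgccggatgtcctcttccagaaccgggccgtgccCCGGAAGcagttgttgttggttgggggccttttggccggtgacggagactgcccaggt
MRPL51, chr12:6493213-6493512, minus strand: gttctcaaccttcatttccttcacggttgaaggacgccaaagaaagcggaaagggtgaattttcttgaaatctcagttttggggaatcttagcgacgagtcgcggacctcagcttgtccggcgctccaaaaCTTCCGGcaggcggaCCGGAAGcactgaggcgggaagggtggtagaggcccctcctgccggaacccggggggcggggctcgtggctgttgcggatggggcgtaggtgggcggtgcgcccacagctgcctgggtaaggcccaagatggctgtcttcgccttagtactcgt
MRPS24, chr7:43869468-43869767, minus strand: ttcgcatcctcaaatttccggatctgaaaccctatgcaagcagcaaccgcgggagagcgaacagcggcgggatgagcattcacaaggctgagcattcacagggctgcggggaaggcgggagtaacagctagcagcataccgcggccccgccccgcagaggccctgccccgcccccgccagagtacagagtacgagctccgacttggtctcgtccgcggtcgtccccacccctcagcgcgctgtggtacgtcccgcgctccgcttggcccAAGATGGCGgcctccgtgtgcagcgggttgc
In MRPS16 and MRPL33 the ETS letters lie near the start site, and MRPL51 holds them on both strands further upstream.

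Some of these genes stand head to head with another gene, and the share among all genes was not taken. In the RefSeq windows 25 of the 67 genes had a start site on the other strand within 1000 bases upstream, and 20 of these partners were tested here. Of the 20, which include the members MRPL46 and MRPS11, 2 fell and 0 rose, with a median log2 fold change of -0.09. Among all genes tested 3.94% fell. In the level range of the 76 genes 6.32% fell and the median was -0.09 as well. TCP1, a chaperonin subunit gene whose start lies 210 bases from that of MRPL18, had 304, 315 and 327 in control and 262, 210 and 196 in knockdown libraries (-0.51, limma adjusted p = 0.0453). NCAPD2, a condensin gene of chromosome segregation 840 bases from MRPL51, had 49.7, 67.1 and 61.04 against 38.5, 41.4 and 28.9 (-0.70, adjusted p = 0.0418). For both pairs the genes on either side fell. In GENCODE release 29, exons of NCAPD2 and MRPL51 overlap on opposite strands. The kit is not stated to mark strand, so reads from that overlap cannot be told apart.

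For the other tested pairs the partner did not pass the test. SARS2, the mitochondrial seryl-tRNA synthetase gene 181 bases from MRPS12, had 28.9, 32.5 and 26.5 in control and 28.1, 32.8 and 35.4 in knockdown libraries (0.13, adjusted p = 0.570). FAU, 49 bases from MRPL49, encodes a cytosolic ribosomal protein and had 616, 462 and 508 against 493, 443 and 484 (-0.15, adjusted p = 0.471). MITD1, 126 bases from MRPL30, had 144, 125 and 136 against 127, 131 and 148 (0.00, adjusted p = 0.990). MRPL46 and MRPS11, whose starts lie 320 bases apart, are both ribosomal, with fold changes of -0.29 and -0.26 that did not pass (adjusted p = 0.173 and 0.207). SARS2 and MRPS12, and FAU and MRPL49, also share exon sequence on opposite strands, with the same limit. The difference within a pair was not tested.

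The 13 calls depend on which libraries entered the test. Without knockdown replicate 1, 17 large-subunit and 12 small-subunit genes fell, beside 12.8% of all genes tested. Without any other library at most 1 of each subunit fell. Calls over all genes dropped in those fits too, from 539 that fell with all libraries. Of all genes tested, 40, 6 and 62 fell without control replicates 1, 2 and 3 in turn. Without knockdown replicates 2 and 3, 32 and 56 of all genes tested did. Without control replicate 2 or knockdown replicate 2, the library with the highest leukocyte marker sum, 0 of the 76 genes fell by limma. In these 2 fits 34 and 29 genes of the 76 were at an unadjusted p below 0.05. The medians without knockdown replicate 2 were -0.29 and -0.30.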

How the data were processed

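Per the labels' protocols, total RNA was isolated by Trizol and a TruSeq kit was used for sequencing, and 3 control and 3 knockdown libraries were grouped by their titles. The authors deposited 1 table with a gene symbol, an Ensembl ID and 1 value per library. The deposited values were treated as FPKM: the file names no unit, they are not whole numbers, and TPM with genes left out is possible. The submitters' processing notes name Bowtie2 2.2.6 and RSEM 1.1.17 among other tools, without roles, and mm10, a mouse build; all gene IDs are human, so no coordinates of the authors are given.

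Genes reaching a value of 1 in 3 or more libraries (13696 of 23344) were tested on log2(value + 1) with limma 3.58.1 (R 4.3.3; mean-variance trend, robust moderation, two-sided, Benjamini-Hochberg adjustment over all genes tested), after the test had been run on simulated data. An exact permutation test of 3 against 3 cannot go below p = 0.1, and depth is unknown. The added 1 understates the change of low genes. The members and gene lists were chosen with earlier results of these data known. Genes were named by rule: those that fell, extremes of level and fold change in each subunit, the MRPS18 relatives, MRPS30, MRPS36, and up to 4 members per list; MRPL12, MRPL13, MT-CO2, GABPA and the head-to-head partners were chosen after their values were seen. Evolutionary classes follow systematic names among the RefSeq synonyms instead of the symbols' numbers, which misplace some genes. The comparison with genes in the same level range was added after seeing the data. Alternatives were a pseudocount of 0.1, no filter, quantile normalization, rescaling without the 13 mitochondrially encoded genes, a replicate block, each library left out, and subunits by structure.

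Of the 78 rows 2, a second MRPL30 and a second MRPS17 row, did not pass the filter (0 to 0.88). In GENCODE release 29, 29 of the 74 genes found share exon sequence with a gene on the other strand, 7 of them among the 13 that fell. The kit is not stated to mark strand, so such reads cannot be told apart.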

Additional observations from a re-analysis of the deposited data

How the results depend on the processing

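Both medians stayed below 0 under all 11 alternative fits and with subunits by structure, and 0 of the 76 genes rose in any of them; the number with a fold change below 0 was 66 to 73. With no filter on low values (23339 genes tested), 1 large-subunit and 1 small-subunit gene fell, 64 of all genes fell and 157 rose, and the assembly, transcription and regulator lists had 0 calls and the mitochondrially encoded list 1. With quantile normalization 3 large-subunit and 5 small-subunit genes fell, the small-subunit median was -0.24 and 6 mitochondrially encoded genes passed. Of all 13696 genes tested 432 fell and 562 rose with it. With the rescaling, 2 and 3 genes fell, the medians were -0.16 and -0.20, 223 of all genes fell (680 rose) and 0 assembly factors passed. The cause of these changes was not tested.

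Leaving out 1 library gave 0 to 17 large-subunit and 0 to 12 small-subunit genes that fell, medians of -0.31 to -0.23 and -0.33 to -0.29, 6 to 1711 of all genes lower and 50 to 1573 higher. The lists had 0 to 7 (assembly), 0 to 4 (translation factors), 0 to 5 (transcription), 0 to 13 (mitochondrially encoded) and 0 to 2 (regulators) calls, and VCAN -1.56 to -1.23, with an adjusted p of 0.0537 without control replicate 2. Over the 11 fits MRPL33 passed in 9 and MRPS16 in 8, MRPL37, MRPS18C and MRPS23 in 5 each, and the other 8 of the 13 in 1 to 4.

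With the replicate block, 7 large-subunit and 5 small-subunit genes fell, 9 of the 13 among them. Of all 13696 genes tested 402 fell and 459 rose in that fit. The assembly list had 1 call, the translation factors 1, and the transcription and regulator lists 0. Same-numbered libraries correlated at 0.05, 0.10 and 0.14 in their deviations from the group means, so the numbers were not taken as pairs.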

Other observations

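Rows related to these genes by name were low and did not all move with them. The table holds 12 rows of pseudogenes or antisense RNAs of mitochondrial ribosomal proteins, of which 4 passed the filter. MRPL23-AS1, an antisense RNA gene at MRPL23, had 1.59, 0.96 and 1.41 in control and 2.34, 3.30 and 4.20 in knockdown libraries and rose (log2 fold change 0.87, SE 0.21, limma adjusted p = 0.0430). MRPL23 had 214, 159 and 171 against 140, 136 and 131, with no overlap in the other direction (-0.40, adjusted p = 0.0865). The data are not stated to keep strand, so reads of these 2 genes cannot be told apart where they overlap. MRPL35P3, a pseudogene of MRPL35, was at 0.50, 0.55 and 0.52 in control and listed at 0 in all knockdown libraries, while MRPL35 itself fell. MRPL37P1 went the other way, at 0.05, 0.06 and 0.06 against 0.13, 0.17 and 0.10, although MRPL37 fell. MRPL40P1 was listed at 0 in all control libraries and at 0.20, 0.18 and 0.32 in knockdown libraries. These pseudogene rows did not pass the filter and were not tested. MRPL45P2 had 2.95, 3.98 and 2.61 against 2.30, 2.81 and 2.61 and did not pass (-0.22, adjusted p = 0.447). Rows such as these were picked after their values were seen.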
